A study of Rattus norvegicus with 6 samples.

Results

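Immediate early genes and Myc were examined in liver RNA of rats given faecal microbiota transplants. The genes were chosen by name: Fos, Fosb, Jun, Junb, Jund, Egr1, Atf3, Ier2, Ier3 and Myc. Of these 10 genes, 9 had a row among the 30957 genes of the deposited expression table. Ier2 had none under its symbol and was not analysed here. All 9 genes passed edgeR's filter for low counts and were among the 12210 genes tested.

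Immediate early genes are transcribed within minutes of a stimulus, without the need for new protein synthesis, and most of their mRNAs decay quickly. Growth factors and stress signals reach them through MAP kinases, serum response factor and CREB, which bind the CArG box and the cAMP response element (CRE) in their promoters. Many of them encode transcription factors. FOS and JUN proteins pair to form AP-1, EGR1 is a zinc finger factor, ATF3 belongs to the CREB and ATF family, and MYC pairs with MAX to drive genes of growth and ribosome production. In the liver they are known for their rapid induction after partial hepatectomy and other injury.

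The 6 livers came from female Sprague Dawley rats bought at 3 weeks of age. Both groups first drank an antibiotic cocktail in repeated courses, which made them pseudo germ-free, a state that reduces the gut bacteria without removing all of them. They were then gavaged daily for 14 days with a faecal suspension. The 3 t-PBS rats received it from donors injected with PBS, and the 3 t-DHEA rats from donors injected with dehydroepiandrosterone (DHEA), an androgen precursor used to produce features of polycystic ovary syndrome. Pellets were pooled before gavage, so rats of a group shared donor material, and the recipients themselves were not injected with DHEA. By the study's account, a low level of DHEA sulphate in the donors' faeces passed to them with the microbiota. The study detected no DHEA there and judged the sulphate far too low to elicit the phenotype. It proposes that the effect came mainly from the transferred microbiota. In these livers alone, the effects of the steroid and of the bacteria cannot be told apart. The question was whether microbiota shaped by DHEA changes gene expression in the recipient's liver.

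Each liver gave 1 library, with 12348511 to 14316886 counts on genes. Albumin, the main secreted protein of hepatocytes, took 10.6 to 13.5% of them. In bulk tissue, fewer cells of a type and less RNA per cell cannot be told apart. A gene was called when its unadjusted p was below 0.05 and its fold-change was above 1.2 in edgeR's quasi-likelihood test, the thresholds used in the study. By that rule 604 genes, or 4.95% of those tested, were called, with 240 higher (1.97%) and 364 lower (2.98%) in t-DHEA livers. After adjustment over the 12210 genes, 0 remained below 0.05 in that test (634 before adjustment), whereas 28 did so in edgeR's likelihood-ratio test and 24 in DESeq2. None of these 28 or 24 was an immediate early gene of this list. Expression is given as CPM, counts scaled to a common library size with TMM factors, and as the deposited FPKM, which is per gene length, where genes are compared with each other.

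RefSeq promoter sequences of the rat build GRCr8 were at hand for 5 of the 10 genes: Fosb, Junb, Jund, Egr1 and Ier2. The 250 bases before the start of 4 of them are shown, as these are the genes with both a sequence there and expression values here. They lie at chr18:26736828-26737077 for Egr1 on the plus strand, chr19:40080876-40081125 for Junb on the plus strand, chr16:18769772-18770021 for Jund on the minus strand and chr1:88089185-88089434 for Fosb on the minus strand, and each is written from 5′ to 3′ on the strand of its gene. Capitals mark the matches to the motifs that were searched on both strands.
Egr1: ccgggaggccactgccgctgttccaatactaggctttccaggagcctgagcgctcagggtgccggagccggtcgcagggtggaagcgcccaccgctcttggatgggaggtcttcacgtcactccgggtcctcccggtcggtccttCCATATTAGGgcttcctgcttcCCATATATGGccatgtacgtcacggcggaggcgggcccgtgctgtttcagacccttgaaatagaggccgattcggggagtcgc
Junb: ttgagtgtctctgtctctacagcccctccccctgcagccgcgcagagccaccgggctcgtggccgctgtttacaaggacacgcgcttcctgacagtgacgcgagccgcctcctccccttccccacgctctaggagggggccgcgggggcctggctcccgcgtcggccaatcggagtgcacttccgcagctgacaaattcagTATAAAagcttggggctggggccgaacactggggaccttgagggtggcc
Jund: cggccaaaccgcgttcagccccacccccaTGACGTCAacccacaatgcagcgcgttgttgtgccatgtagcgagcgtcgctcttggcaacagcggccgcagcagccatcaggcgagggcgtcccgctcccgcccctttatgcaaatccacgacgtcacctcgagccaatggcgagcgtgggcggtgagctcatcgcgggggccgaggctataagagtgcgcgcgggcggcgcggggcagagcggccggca
Fosb: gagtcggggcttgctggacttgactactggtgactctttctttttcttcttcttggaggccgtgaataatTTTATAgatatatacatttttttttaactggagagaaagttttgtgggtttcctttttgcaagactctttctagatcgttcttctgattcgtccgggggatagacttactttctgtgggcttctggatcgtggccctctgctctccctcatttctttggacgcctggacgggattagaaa

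Egr1 held 2 CArG boxes in this window, CCATATTAGG at 105 bases and CCATATATGG at 83 bases before the start, whereas 1.5% of the 33469 rat promoters in the table held any. Jund held 1 full CRE, TGACGTCA, 221 bases before its start, and Ier2 held 1 at 66 bases. A CRE was present in 1.59% of all promoters. The AP-1 site TGACTCA, found in 4.05% of promoters, and the E-box CACGTG, which MYC and MAX bind and which was found in 5.59%, had no match in the 5 windows. A TATA element, TATAAA, was matched 49 bases before the start of Junb and, on the opposite strand, 180 bases before that of Fosb, and 12.9% of promoters held one. None of these motifs overlapped another. A match is a stretch of letters and was not tested for binding.

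Levels of the 9 genes differed widely per length. Over the 6 livers, Junb had the highest median, 36.8 FPKM, followed by Egr1 at 29.2 FPKM, Jund at 29.0 FPKM and Jun at 26.4 FPKM. These 4 genes could not be ordered beyond their spread: Junb lay above Egr1 in 4 of 6 livers, Egr1 above Jund in 4, and Jund above Jun in 3. Ier3, which encodes a regulator of cell survival, had a median of 14.7 FPKM and lay below Jun in 4 livers. Ier3 exceeded Fos, with a median of 6.11 FPKM, in all 6 livers. Fos lay above Myc, at 3.58 FPKM, in 4. The least expressed were Atf3 at 0.304 FPKM and Fosb at 0.182 FPKM. The gene length behind the deposited FPKM of Ier3 was 2553 bases, longer than its span of 1972 bases in the same table, and that of Fosb, 6563 bases, was 90.9% of its span, introns included. The places of both genes in this order are therefore less certain.

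**Figure D1:**
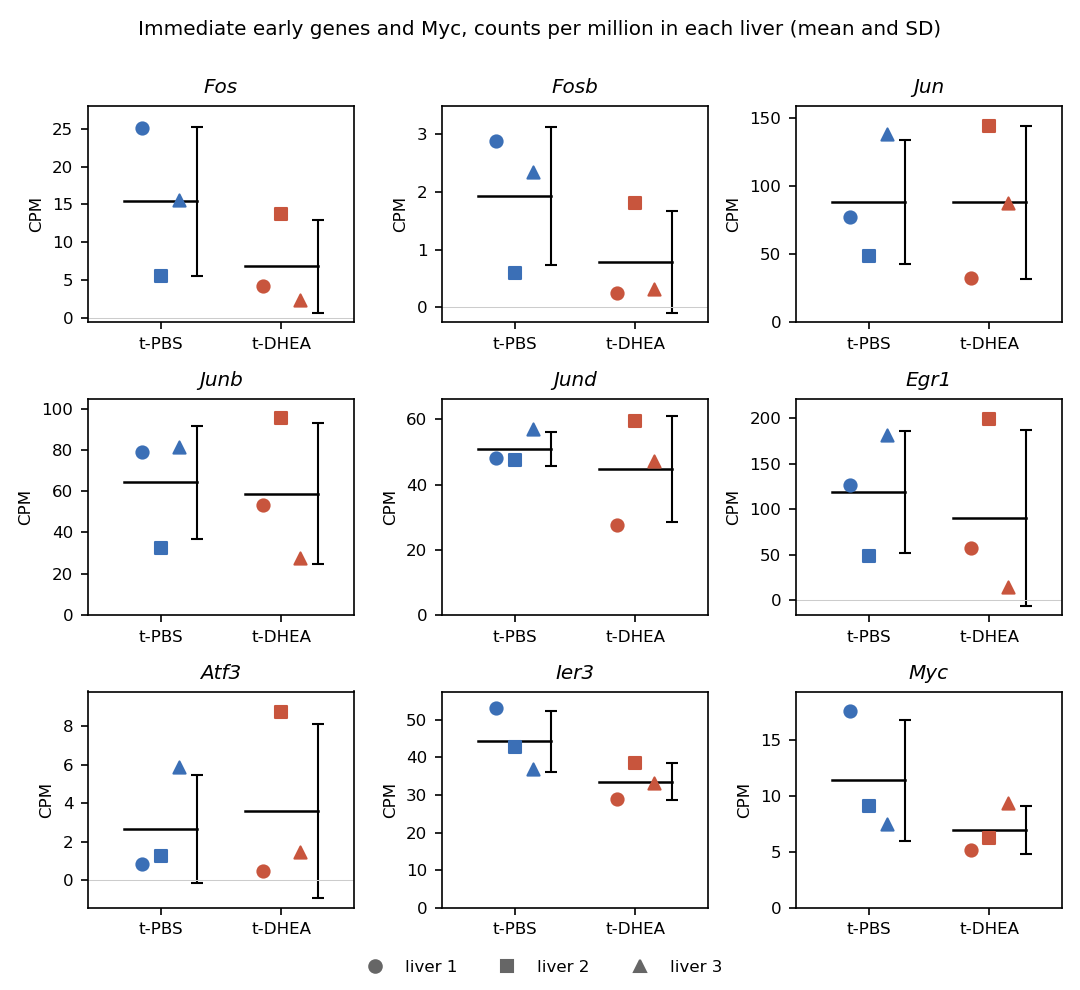
CPM of each gene (vertical axis, a scale per gene) in 3 t-PBS livers (blue) and 3 t-DHEA livers (red), with the liver's number as the symbol, the group mean as a line and the SD as a bar. The groups overlap for all 9 genes, and t-DHEA liver 2 is the highest t-DHEA liver for every gene but Myc.

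Fos encodes the FOS partner of AP-1 and lies on chromosome 6 of Rnor_6.0, from 109300433 to 109303299. Its level was 25.1, 5.53 and 15.6 CPM in t-PBS livers 1, 2 and 3, and 4.29, 13.8 and 2.39 CPM in t-DHEA livers 1, 2 and 3. The groups overlapped, because t-PBS liver 2 was among the low livers and t-DHEA liver 2 among the high ones. The mean was 15.4 ± 9.78 CPM (SD, n = 3) in t-PBS and 6.84 ± 6.13 CPM (SD, n = 3) in t-DHEA livers. On the log2 scale t-DHEA differed from t-PBS by -1.16 ± 0.64 (SE; unadjusted p = 0.103, edgeR quasi-likelihood; exact permutation p = 0.2), and the 95% interval reached from 0.163 to 1.22 times the t-PBS level. With t-DHEA liver 2 left out this was -2.21 (unadjusted p = 0.00565), and with t-PBS liver 2 left out -1.56 (unadjusted p = 0.0248). It shrank to -0.62 (unadjusted p = 0.388) with t-PBS liver 1 left out and to -0.76 (unadjusted p = 0.266) with t-DHEA liver 3 left out. Permutation tests here are two-sided, on CPM, and with 3 livers against 3 cannot go below 0.1.

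Fosb, the related gene on chromosome 1 from 80214494 to 80221710, was close to the detection limit. It had 41, 8 and 31 counts in t-PBS livers 1, 2 and 3, and 3, 24 and 4 counts in t-DHEA livers 1, 2 and 3. A count of 0 allows up to 3 counts, which put t-DHEA liver 1 at the limit. The 3 highest livers were the same as for Fos. The log2 difference between groups was -1.27 ± 0.75 (SE; unadjusted p = 0.125, edgeR quasi-likelihood; exact permutation p = 0.2). It became -2.75 (unadjusted p = 0.00695) when t-DHEA liver 2 was omitted and -1.70 (unadjusted p = 0.0344) when t-PBS liver 2 was omitted. Each of the other 4 omissions gave a smaller size, down to -0.87 for t-PBS liver 1 (unadjusted p = 0.343) and for t-DHEA liver 1 (unadjusted p = 0.302).

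Jun encodes a strongly activating partner in AP-1 and lies on chromosome 5 from 114011189 to 114014277. It was expressed at 77.3, 48.8 and 138 CPM in t-PBS livers 1, 2 and 3, and at 32.0, 144 and 87.1 CPM in t-DHEA livers 1, 2 and 3. Both groups covered nearly the same range, with means of 88.2 ± 45.8 CPM (SD, n = 3) in t-PBS and 87.8 ± 56.1 CPM (SD, n = 3) in t-DHEA livers. Their log2 difference of -0.0049 had a 95% interval of 0.452 to 2.20 times the t-PBS level (exact permutation p = 1). Omitting t-DHEA liver 2 gave -0.56, and omitting t-PBS liver 3 gave 0.48.

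Junb, on chromosome 19 from 26092974 to 26094756, encodes a JUN protein that in many settings restrains JUN. Its level was 78.9, 32.5 and 81.4 CPM in t-PBS livers 1, 2 and 3, and 53.5, 95.4 and 27.7 CPM in t-DHEA livers 1, 2 and 3. The highest and the lowest liver were both in the t-DHEA group. Between groups Junb differed by -0.13 ± 0.44 on the log2 scale (SE; unadjusted p = 0.782, edgeR quasi-likelihood; exact permutation p = 0.9), by -0.66 once t-DHEA liver 2 was omitted and by 0.21 once t-DHEA liver 3 was.

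Jund, on chromosome 16 from 20485029 to 20486707, encodes the JUN protein that is expressed most steadily in resting cells. It was at 48.2, 47.6 and 56.9 CPM in t-PBS livers 1, 2 and 3, and at 27.5, 59.5 and 47.3 CPM in t-DHEA livers 1, 2 and 3. The lowest liver, t-DHEA liver 1, stood well below the other 5. Jund differed between groups by -0.18 ± 0.24 (log2, SE; unadjusted p = 0.459, edgeR quasi-likelihood; exact permutation p = 0.7), and by 0.069 when that liver was omitted. The highest liver had 2.17 times the level of the lowest for Jund, against 4.50 times for Jun, 3.44 times for Junb and 10.5 times for Fos.

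The makeup of the AP-1 genes differed between livers. Jund made up 29.3, 45.4 and 27.3% of the summed FPKM of Jun, Junb and Jund in t-PBS livers 1, 2 and 3, and 28.9, 26.1 and 39.2% in t-DHEA livers 1, 2 and 3. Relative to the 3 Jun genes, Fos and Fosb together reached 16.6, 5.72 and 8.19% of their summed FPKM in t-PBS, and 4.83, 6.62 and 2.16% in t-DHEA, in the same order of livers. Both shares overlapped between the groups.

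**Figure D2:**
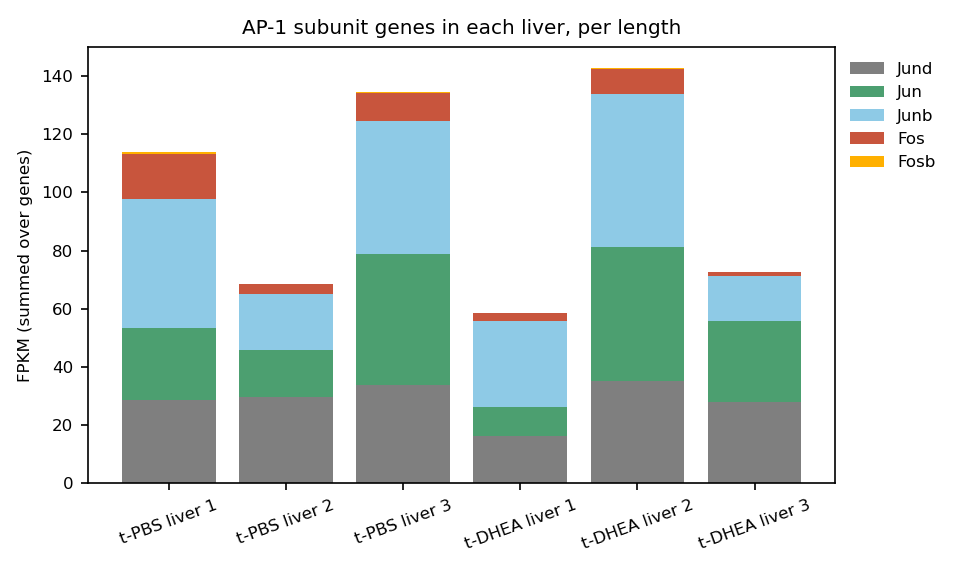
FPKM of Jund, Jun, Junb, Fos and Fosb (vertical axis) stacked for each of the 6 livers. The Jun genes sum to 134 FPKM in t-DHEA liver 2 and to 124 FPKM in t-PBS liver 3, against 55.7 FPKM in t-DHEA liver 1, and Fosb is too low to see.

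Egr1, on chromosome 18 from 27657628 to 27661429, had the widest range of the well-expressed genes of the list. It was at 127, 48.8 and 182 CPM in t-PBS livers 1, 2 and 3, and at 57.3, 199 and 14.8 CPM in t-DHEA livers 1, 2 and 3. The highest and the lowest of the 6 livers were both t-DHEA livers and differed 13.4-fold. The means were 119 ± 67.1 CPM (SD, n = 3) in t-PBS and 90.5 ± 96.6 CPM (SD, n = 3) in t-DHEA livers. This is a log2 difference of -0.40 ± 0.77 (SE; unadjusted p = 0.616, edgeR quasi-likelihood; exact permutation p = 0.8). It became -1.72 (unadjusted p = 0.0248) when t-DHEA liver 2 was omitted, whereas omitting t-PBS liver 3 gave 0.043 and omitting t-DHEA liver 3 gave 0.11.

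Atf3 is a repressor and activator induced by many stresses, and lies on chromosome 13 from 109817728 to 109849632. It had 12, 17 and 78 counts in t-PBS livers 1, 2 and 3, and 6, 117 and 19 counts in t-DHEA livers 1, 2 and 3. A single liver in each group, t-PBS liver 3 and t-DHEA liver 2, held most of the counts. Of the 9 genes it alone had a higher fitted level in t-DHEA, by 0.45 ± 0.95 on the log2 scale (SE; unadjusted p = 0.645, edgeR quasi-likelihood; exact permutation p = 0.8). This value turned to -1.40 when t-DHEA liver 2 was omitted, and was 1.78 when t-PBS liver 3 was.

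Ier3, on chromosome 20 from 3438798 to 3440769, was the 1 gene of the 9 that met the criteria, and it fell. The share of called genes among all tested was 4.95%, and that of genes called as lower was 2.98%. Its level was 20.7, 17.4 and 14.5 FPKM in t-PBS livers 1, 2 and 3, and 11.1, 14.9 and 12.8 FPKM in t-DHEA livers 1, 2 and 3. The groups overlapped, since t-DHEA liver 2 lay above t-PBS liver 3. In CPM the means were 44.2 ± 8.12 (SD, n = 3) in t-PBS and 33.5 ± 4.91 (SD, n = 3) in t-DHEA livers. Ier3 fell by 0.40 ± 0.16 on the log2 scale (SE; unadjusted p = 0.0324, adjusted p = 0.957, edgeR quasi-likelihood; exact permutation p = 0.2). Its call was lost on omitting t-PBS liver 1, t-PBS liver 2, t-DHEA liver 1 or t-DHEA liver 3, where edgeR's unadjusted p became 0.138, 0.0504, 0.109 and 0.0733, and the value stayed between -0.51 and -0.25 whichever of the 6 livers was omitted.

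Myc, on chromosome 7 from 102586313 to 102591237, was at 17.6, 9.07 and 7.47 CPM in t-PBS livers 1, 2 and 3, and at 5.20, 6.28 and 9.35 CPM in t-DHEA livers 1, 2 and 3. The order of livers was unlike that of Fos or Egr1: t-DHEA liver 2 was low, and t-DHEA liver 3 was second only to t-PBS liver 1. That second place was nearly a tie with t-PBS liver 2, at 121 against 123 counts. Myc missed the threshold (log2 difference -0.71, unadjusted p = 0.0637, edgeR quasi-likelihood; exact permutation p = 0.3), with a 95% interval of 0.359 to 1.04 times the t-PBS level. It met the criteria when t-PBS liver 2, t-PBS liver 3 or t-DHEA liver 3 was omitted, at -0.85, -0.94 and -0.99 on the log2 scale, and stood at -0.25 when t-PBS liver 1 was.

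**Figure D3:**
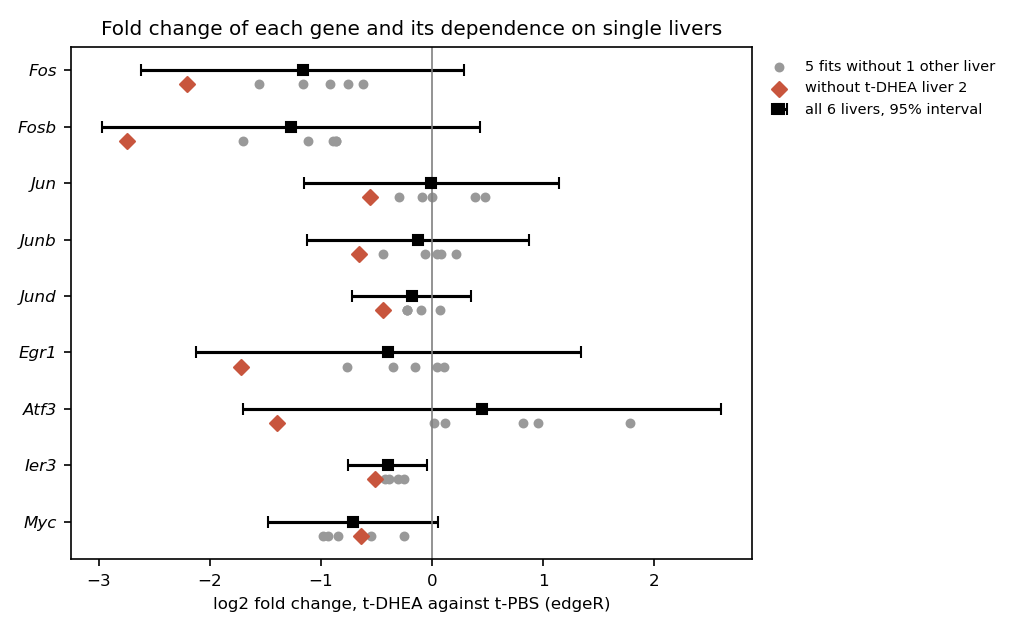
Log2 fold change of each gene, t-DHEA against t-PBS, from all 6 livers (black squares with 95% intervals) and from the 6 fits that each left out 1 liver (grey points, and red diamonds for the fit without t-DHEA liver 2). Only the interval of Ier3 lies below 0, and the red diamonds of Fos, Fosb, Egr1 and Atf3 lie far to the left of their squares.

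Over the 9 genes, 8 had a log2 fold change below 0 and 1 above, with a median of -0.40 against 0.0013 over all genes tested. Jun counts among the 8 at only -0.0049. Several of the genes were high and low in the same livers, so the 9 values are not separate observations. Groups were fully apart for 0 of the 9 genes, against 10.1% of all those tested. The lowest adjusted p of the 9 was 0.957. With t-DHEA liver 2 omitted all 9 values were below 0, with a median of -0.66, and 4 genes were called (Fos, Fosb, Egr1 and Ier3), where 4.81% of all genes tested were called. That liver is singled out after its values were seen. It was the highest t-DHEA liver for every gene but Myc, so omitting it lowers the other values by construction. Omitting t-PBS liver 1, or t-DHEA liver 1, left none of the 9 called.

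Most of these genes differed widely between livers of one group. The SD of log2 CPM within a group had a median of 0.943 over the 9 genes, against 0.188 over all genes tested. It was above 1 for Fos, Fosb, Egr1 and Atf3, at 1.18, 1.19, 1.49 and 1.67, whereas 0.975% of genes tested exceeded 1. For 6 of the 9 genes it was within the highest 5% of all genes tested. Spread grows as counts fall, and the low levels of Fosb and Atf3 add counting error to theirs. Egr1 and Jun, with over 10 CPM in every liver, had an SD above that of 99.7 and 98.8% of genes tested, and Jund and Myc one above that of 87.3 and 93.3%. Ier3 was the steadiest, with an SD of 0.237, outside the highest 5% of all genes tested, as were Jund and Myc. Among the 500 tested genes nearest in mean level, however, Jund and Myc exceeded 97.2 and 97.4%, and Ier3 87%.

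**Figure D4:**
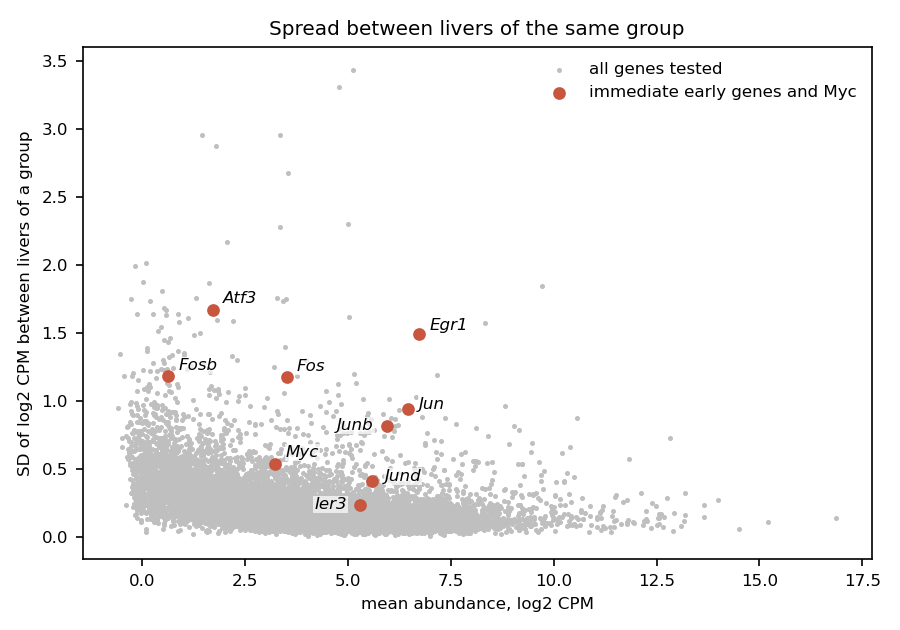
SD of log2 CPM between livers of a group (vertical axis) against mean log2 CPM (horizontal axis) for the 12210 genes tested (grey) and the 9 genes described (red). Fos, Fosb, Egr1 and Atf3 lie above 1, where grey points are few, and Ier3 lies within the grey band at 0.237.

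Several of the genes shared their high and low livers, but not all did. For Atf3, t-PBS liver 1 was second lowest, at 0.841 CPM, and for Myc t-DHEA liver 2 was, at 6.28 CPM. The highest liver was t-DHEA liver 2 for 5 genes (Jun, Junb, Jund, Egr1 and Atf3) and t-PBS liver 1 for the other 4. Among all genes tested, these livers were the highest for 18.5% and 15.4%. The lowest liver was t-DHEA liver 1 for 6 genes and t-DHEA liver 3 for 3, against 17.7% and 15.8% of all genes tested. For Fos, Fosb, Junb, Jund and Egr1 the 3 highest livers were t-PBS livers 1 and 3 and t-DHEA liver 2, a set seen in 5.33% of all genes tested. Jund belonged to these genes by a narrow margin, with 48.2 CPM in t-PBS liver 1 against 47.6 CPM in t-PBS liver 2. This set of livers was noticed after the values were seen. Standardised over the 6 livers and averaged over the 9 genes, the level was 0.70, -0.31 and 0.62 SD in t-PBS livers 1, 2 and 3, and -1.03, 0.66 and -0.64 SD in t-DHEA livers 1, 2 and 3.

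**Figure D5:**
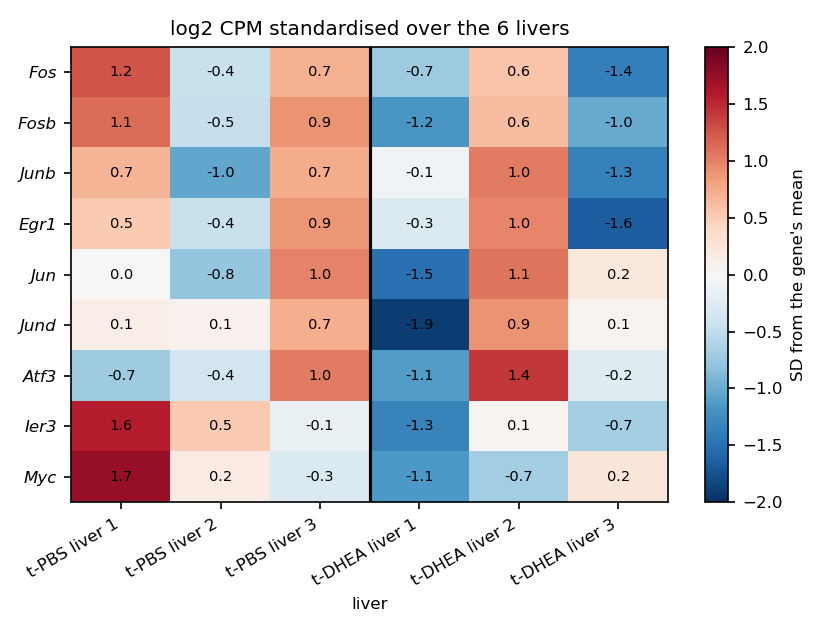
Log2 CPM of each gene in each liver, in SD from that gene's mean over the 6 livers (red above, blue below), with t-PBS livers left of the line and t-DHEA livers right of it. Fos, Fosb, Junb and Egr1 share red cells in t-PBS livers 1 and 3 and in t-DHEA liver 2, while Ier3 and Myc are reddest in t-PBS liver 1.

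Markers of other cell types stood apart in some of these livers. Beside the numbers of called markers given for each type, 1.97% of all genes tested rose and 2.98% fell. The 5 mesothelial markers (Upk3b, Msln, Wt1, Muc16 and Gpm6a), of which 3 of 4 tested fell, summed to 1.72 CPM in t-DHEA liver 2, against 17.4 and 25.7 CPM in the other t-DHEA livers and 31.2 to 33.7 CPM in t-PBS. The 6 bile duct markers, of which 2 of 5 tested fell, summed to 9.50 CPM there and to 13.2 to 23.6 CPM elsewhere. The 5 red blood cell genes, of which 3 rose, summed to 589.7 CPM in that liver and to 184.9 to 368.1 CPM in the other 5. In t-PBS liver 1, the highest for Fos, Fosb, Ier3 and Myc, the endothelial markers, of which 1 of 8 tested rose, summed to 327.6 CPM, against 451.5 to 475.7 CPM elsewhere.

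Kupffer cell and macrophage markers, 10 in number and none called, summed to 604.8 to 763.6 CPM in t-PBS and to 719.2, 670.9 and 934.0 CPM in t-DHEA livers 1, 2 and 3. Neutrophil markers were near the limit of detection, with sums of 2.26 to 3.15 CPM in t-PBS and 2.92 to 4.21 CPM in t-DHEA, and 1 of the 8 had no count in any liver; 1 of 3 tested rose. None of 5 tested lymphocyte markers was called, and the list summed to 30.5 to 31.8 CPM in t-PBS and 27.5 to 32.0 CPM in t-DHEA. Stellate and fibroblast markers, of which 4 of 10 fell, summed to 673.1 to 836.5 CPM in t-PBS and 557.2 to 644.3 CPM in t-DHEA. Hepatocyte markers, of which 1 of 10 rose, summed to 168500 to 184900 CPM in t-PBS and 179300 to 195900 CPM in t-DHEA. The part of these cells in the levels of the immediate early genes was not tested.

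The genes with the pattern most like the mean of the 9 were Abcb6, Bcl7a, Lasp1, Zfp395 and Vars2. Likeness was the root mean square difference between standardised profiles over the 6 livers, and it was 0.11, 0.152, 0.163, 0.182 and 0.185 SD. In each of the 5 genes t-PBS livers 1 and 3 and t-DHEA liver 2 were the 3 highest, in an order that varied. This follows from their choice by likeness, as the same 3 livers are highest in the mean profile. The range was narrow for the nearest, Abcb6, from 41.5 to 48.7 CPM. Of the 9 genes themselves, Fosb and Fos were nearest to the mean profile, at 0.169 and 0.38 SD, and Myc was farthest, at 0.993 SD. Each of the 9 is itself part of that mean. Among all genes tested, Fosb ranked 5, Fos 66 and Myc 2660 in likeness to it.

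Among 36 other immediate early genes, 27 were tested, of which 1 rose, none fell, and the median log2 fold change was -0.025. Over all genes tested, 1.97% were called as higher and 2.98% as lower. The gene that rose was Csrnp1, which encodes a nuclear protein induced by axin. Its level was 13.0, 14.7 and 9.06 CPM in t-PBS livers 1, 2 and 3, and 17.1, 25.7 and 30.1 CPM in t-DHEA livers 1, 2 and 3. The groups did not overlap, which held for 10.1% of all genes tested. Csrnp1 rose by 0.99 ± 0.23 on the log2 scale (SE; unadjusted p = 0.00229, adjusted p = 0.796, edgeR quasi-likelihood), and met the criteria whichever of the 6 livers was omitted. Its unadjusted p was 8.04e-05 in edgeR's likelihood-ratio test and 3.23e-05 in DESeq2. The former places it among the 28 genes below 0.05 after adjustment in the likelihood-ratio test. Whether it was also among the 24 of DESeq2 is not given here. The SD within groups exceeded 1 for 2 of the 27 genes, Egr2 and Nr4a1, at 1.14 and 1.04. Egr2 had 24, 11 and 22 counts in t-PBS livers 1, 2 and 3, and 6, 42 and 4 counts in t-DHEA livers 1, 2 and 3. For 7 of the 27 genes (Btg2, Egr2, Gadd45g, Plk2, Socs3, Zfp36 and Zfp36l1) the 3 highest livers were again t-PBS livers 1 and 3 and t-DHEA liver 2. All of these names other than Csrnp1 were chosen after their values were seen.

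Phosphatases and other inhibitors shut off the MAP kinase signals that induce these genes. Of 12 tested, 1 fell and none rose, against 2.98% and 1.97% of all genes tested. The one that fell was Dusp6, the phosphatase of ERK, at 50.5, 37.4 and 38.0 CPM in t-PBS livers 1, 2 and 3, and 23.8, 38.8 and 29.6 CPM in t-DHEA livers 1, 2 and 3. The groups overlapped through t-DHEA liver 2, and Dusp6 fell by 0.45 on the log2 scale (unadjusted p = 0.0422, edgeR quasi-likelihood). Its call held in 3 of the 6 fits that omitted 1 liver, and was lost on omitting t-PBS liver 1, t-DHEA liver 1 or t-DHEA liver 3. Of 25 upstream kinases and factors tested, Mef2c rose by 0.79 and Mef2d fell by 0.27 on the log2 scale, both encoding MADS-box factors, and these calls held in 1 and 2 of the 6 fits that omitted 1 liver and in neither case with DESeq2 (unadjusted p-values of 0.0775 and 0.0908). Mef2c was at 0.38 with limma on log2(FPKM + 0.1) and at 0.066 on log2(FPKM + 1), and was called in neither. The other 23 were not called. None of 15 tested partners of AP-1 was called. Those with the lowest p-values were Maf, Atf6 and Atf7, with log2 fold changes of -0.26, -0.18 and -0.22.

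Around Atf3, none of 16 tested genes of the integrated stress response was called. Chac1, Phgdh and Fgf21 had the lowest p-values, with log2 fold changes of 0.87, -0.93 and -0.39. Around Myc, none of 12 tested genes of the Max and Mlx network was called, and Mycl, Max and Mxd4 had log2 fold changes of -0.58, -0.12 and 0.46. Of 29 Myc target genes of ribosome production and growth, 2 fell and none rose, with a median of -0.11. Over all genes tested, 2.98% were called as lower and 1.97% as higher. The 2 targets were Ddx21, an RNA helicase of the nucleolus, and Cad, the enzyme that opens pyrimidine synthesis, which fell by 0.35 and by 0.33 on the log2 scale. Each of these calls held in 2 of the 6 fits that omitted 1 liver, and that of Cad was lost with DESeq2 (unadjusted p-value of 0.055) and with limma. Of 7 tested heat shock genes, Serpinh1, the collagen chaperone, fell by 0.37 on the log2 scale, a call that held in 3 of those 6 fits, and the others were not called. Of the other 4 heat shock genes, Hspa1a and Hsp90aa1 had no count in any liver and Hspa8 and Hspa1b had at most 5 and 15, names given after their values were seen. Whether so few counts mean low expression or a gap in mapping or counting was not tested.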

How the data were processed

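RNA-seq of 6 rat livers, 3 t-PBS and 3 t-DHEA, was analysed. The authors filtered reads with Seqtk, mapped them to Rnor_6.0 with HISAT2 2.0.4 and counted fragments per gene with StringTie 1.3.0, per the labels and the study's methods. They deposited these raw counts without normalisation, and the FPKM values the authors made from them. Annotation release and strandedness are not given in the sources used here, but no other gene of the table overlapped the members. Groups and liver numbers came from the sample titles. The numbers only name the livers.

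Counts were fitted with edgeR 4.0.16 in R 4.3.3 (default low-count filter, TMM, quasi-likelihood test, Benjamini-Hochberg over all genes tested). Standard errors came from the test statistic, and log2 CPM used a prior count of 2. The study states edgeR on FPKM, to which no count model was fitted here. The fit was tested on simulated data. Depths of 12348511 to 14316886 counts put the limit of 3 counts at 0.21 to 0.243 CPM, which covers counting error only. Nothing says that p-values cover more than the spread between these rats. A chi-square test of counts found every pair of libraries at least 16.1 times farther apart than sampling noise, so none was a copy of another. It cannot tell whether different libraries came from the same rat. The smallest p of an exact permutation test of 3 against 3 is 0.1.

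Members and gene lists were chosen with earlier results of these data known. Named outside the members are, in each list, the genes called or otherwise the 3 with the lowest p, and the 5 genes of at least 1 CPM nearest to the members' mean profile. Other genes named were chosen after their values were seen. Of the lists' genes, 7 could not be matched to a single row. Alternatives were other size factors, DESeq2 1.42.0, the likelihood-ratio test, other filters, limma 3.58.1 on log2(FPKM + 0.1) or log2(FPKM + 1), a block by replicate number, single livers left out and a fold-change above 2.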

Additional observations from a re-analysis of the deposited data

How the results depend on the processing

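The number of called genes was 414 with DESeq2, 776 with no filter for low counts and 100 at a fold-change above 2, and it was 509 to 719 when each liver was left out in turn. With limma on log2(FPKM + 0.1) the split was 165 higher and 448 lower, against 240 and 364. Called members numbered 2 with DESeq2, with the likelihood-ratio test and with no filter, where Myc joined Ier3 (with unadjusted p-values of 0.0249, 0.0416 and 0.047), and 0 at a fold-change above 2. DESeq2 and the likelihood-ratio test called 414 and 608 of all 12210 genes, and the fit with no filter 776 of 17187. When each liver was left out in turn, 0 to 4 members were called. With at least 10 counts in every liver, Fosb and Atf3 were not tested.

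Leaving out each liver in turn turned the sign of 5 genes, with log2 values of -0.56 to 0.48 for Jun, -0.66 to 0.21 for Junb, -0.44 to 0.069 for Jund, -1.72 to 0.11 for Egr1 and -1.40 to 1.78 for Atf3. Jun was also at 0.00016 with no filter. Fos, Fosb, Ier3 and Myc had a value below 0 in all alternatives they could be fitted in. With limma on log2(FPKM + 1) Fosb was at -0.21, and with limma on log2(FPKM + 0.1) Egr1 was at -0.94 and Atf3 at 0.059. In the lists of related genes, 1 to 6 other immediate early genes were called, of 26 to 34 tested. The 6 came from the fit without t-DHEA liver 2, where 4.81% of all genes tested were called, and no other fit gave more than 4. Of 29 Myc target genes tested, 0 to 3 were called. The 3 came from the fit without t-DHEA liver 1, where 719 of 12210 genes were called.

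With the replicate number as a block, 539 genes and 0 members were called, with Ier3 at 0.0551 (edgeR, unadjusted p). Livers with the same number did not deviate together (correlations across genes of -0.057, -0.059 and -0.055), and none of the 6 correlated best with its own number. The causes of these changes were not tested.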
